A study of Mus musculus with 3 samples.

Results

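The genes examined encode secreted modulators of Wnt signalling. They are the Dickkopf genes Dkk1, Dkk2 and Dkk3, the secreted frizzled-related genes Sfrp1, Sfrp2 and Frzb, the R-spondin genes Rspo2 and Rspo3, and the antagonist genes Wif1 and Sost. These 10 genes of 18193 on the array were taken by symbol, with every probe set annotated to 1 of them alone, which gave 20 of 34945 probe sets with a single gene symbol. The study sorted cells set free by collagenase from pieces of thigh and shin bone of C57BL/6 mice, whose age, sex and number are not given in the sources used here. All populations were sorted as negative for CD45, CD31 and Ter119, which mark white blood cells, endothelium and red blood cells. Some blood-cell genes were still above the floor, as given below. The cells carried no transgene or treatment in the labels. The 3 populations were ALCAM+ Sca-1- cells (called ALCAM-positive cells), ALCAM- Sca-1+ cells (called Sca-1-positive cells) and ALCAM- Sca-1- cells (called double-negative cells). ALCAM mediates adhesion between cells, and Sca-1 marks many immature cells of the marrow. RNA of each population was amplified and read on 1 array, so no difference has a replicate check and none carries a p-value.

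A Wnt protein signals by joining a frizzled receptor to the co-receptor Lrp5 or Lrp6, which stabilises beta-catenin and turns on genes through TCF and LEF factors. Dkk1 and sclerostin, the product of Sost, bind the co-receptors, whereas the Sfrp proteins and Wif1 bind Wnt proteins themselves. R-spondins act the other way: through Lgr receptors they keep the ligases Znrf3 and Rnf43 from removing frizzled receptors, and so strengthen a Wnt signal. In bone, Wnt signalling favours osteoblast formation, and Dkk1 and sclerostin are known as brakes on it.

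Values are signals in arbitrary units on a scale shared by the 3 arrays, and a signal of 75.4, the pooled median of all probe sets, served as the floor below which a signal was taken only as a bound. Since the signals of different probe sets cannot be set against each other, each gene was compared with itself across populations. A difference of at least 4-fold was counted as apart, a rule of size and not a test. In their brightest probe set 9 of the 10 genes passed the floor on some array (called measured), and 1, Sost, passed it on none. In a bulk sample fewer cells of a type and less RNA per cell cannot be told apart.

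The Dickkopf genes were divided between the marker-bearing populations, Dkk1 on the ALCAM-positive side and Dkk2 and Dkk3 on the Sca-1-positive side. Dkk2, whose product binds Lrp6 and can act for or against a Wnt signal, had a signal of 40.2 in ALCAM-positive, 6188 in Sca-1-positive and 111.5 in double-negative cells. Dkk2 was 55.5-fold higher in Sca-1-positive than in double-negative cells, the third highest of 10324 genes above the floor on both arrays, and at least 82.1-fold lower in ALCAM-positive than in Sca-1-positive cells. ALCAM-positive and double-negative cells both lay near the floor, with ALCAM-positive cells at least 1.48-fold lower.

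Dkk1 had 587 in ALCAM-positive, 44.4 in Sca-1-positive and 98.5 in double-negative cells, so the population with the most Dkk2 was the one in which Dkk1 was below the floor. Dkk1 was 5.96-fold higher in ALCAM-positive than in double-negative cells and at least 7.78-fold higher than in Sca-1-positive cells. Its other probe set gave 185 in ALCAM-positive, 16.8 in Sca-1-positive and 0.6 in double-negative cells, with ALCAM-positive the only population above the floor. There the differences amount to at least 2.45-fold in both comparisons. Averaged over both probe sets, the difference from double-negative cells was 1.93 on the log2 scale and no longer reached 4-fold, and it was 0.44 when the floor was raised to the 75th percentile.

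Dkk3, a family member whose action on Wnt signalling depends on the cell, was above the floor everywhere. Its signal was 674 in ALCAM-positive, 3931 in Sca-1-positive and 702 in double-negative cells. The other probe set gave 422.5 in ALCAM-positive, 1769 in Sca-1-positive and 436 in double-negative cells, so both probe sets put Sca-1-positive cells alone at a high level. Dkk3 was 5.60-fold higher in Sca-1-positive than in double-negative cells by one probe set and 4.06-fold by the other. ALCAM-positive and double-negative cells differed only 1.04-fold and 1.03-fold.

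The Dkk1 and Dkk2 genes, the pair with opposite distributions, are shown by the stretch that runs from 250 bases before to 50 bases after the gene's start, read 5′ to 3′ on the gene's strand from the RefSeq promoter table (GRCm38.p6). Capitals mark matches on either strand to the TCF/LEF core (CTTTGA or CTTTGT), the RUNX core (TGTGGT) and the TATA box (TATAAA).
Dkk1 (chr19:30549447-30549746, minus strand): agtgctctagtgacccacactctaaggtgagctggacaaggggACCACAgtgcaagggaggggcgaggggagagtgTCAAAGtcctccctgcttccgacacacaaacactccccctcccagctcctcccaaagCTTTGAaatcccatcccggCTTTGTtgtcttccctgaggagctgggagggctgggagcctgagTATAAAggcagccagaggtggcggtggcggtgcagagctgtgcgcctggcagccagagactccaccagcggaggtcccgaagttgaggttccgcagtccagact
Dkk2 (chr3:132085042-132085341, plus strand): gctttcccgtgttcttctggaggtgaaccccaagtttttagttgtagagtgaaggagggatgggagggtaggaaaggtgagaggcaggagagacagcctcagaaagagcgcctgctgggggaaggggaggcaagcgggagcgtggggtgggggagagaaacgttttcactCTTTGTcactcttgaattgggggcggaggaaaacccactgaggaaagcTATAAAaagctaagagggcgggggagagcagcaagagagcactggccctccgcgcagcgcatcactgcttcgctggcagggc
Dkk1 held 3 TCF/LEF core matches, whose first bases lay 174, 117 and 98 bases before the start, as well as a RUNX core and a TATA box. Dkk2 held 1 TCF/LEF core match 80 bases before the start and a TATA box 32 bases before it. Of 32851 promoters of this length in the table, 31.2% held either form of the TCF/LEF core, 16.8% the RUNX core and 13.6% the TATA box. A match describes letters only and is not evidence of binding.

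The secreted frizzled-related genes followed the same division. Sfrp1, whose product binds Wnt proteins through a frizzled-like domain, had 125.7 in ALCAM-positive, 2900 in Sca-1-positive and 93.2 in double-negative cells. It was 31.1-fold higher in Sca-1-positive than in double-negative cells, rank 14 from the top among 10324 genes, and 23.1-fold lower in ALCAM-positive than in Sca-1-positive cells. The other 4 probe sets are dimmer, and they did not all repeat the excess of Sca-1-positive over double-negative cells. Of these 4, 2 were above the floor in Sca-1-positive cells alone, at 271 and 223, which bounds the difference from double-negative cells at 3.60-fold and 2.95-fold or more. Another gave 12.1 in ALCAM-positive, 129 in Sca-1-positive and 122 in double-negative cells, so there ALCAM-positive cells were at least 1.62-fold lower than double-negative cells while Sca-1-positive cells were level with them, and the last was below the floor on all 3 arrays. With all 5 probe sets averaged, the log2 difference between Sca-1-positive and double-negative cells was 1.69, under 4-fold.

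Sfrp2, a close relative of Sfrp1, has 1 probe set, with 190.4 in ALCAM-positive, 3095 in Sca-1-positive and 254 in double-negative cells. The Sca-1-positive signal stood 12.2-fold above that of double-negative cells, and the ALCAM-positive signal 16.3-fold below that of Sca-1-positive cells. Frzb, also known as Sfrp3 and described in cartilage, went the opposite way: its signal was 8067 in ALCAM-positive, 71.3 in Sca-1-positive and 2014 in double-negative cells. Frzb was at least 107-fold higher in ALCAM-positive than in Sca-1-positive cells and at least 26.7-fold lower in Sca-1-positive than in double-negative cells. The other Frzb probe set repeated this order with 1730 in ALCAM-positive, 9.7 in Sca-1-positive and 231 in double-negative cells.

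The excess of Frzb in ALCAM-positive over double-negative cells lay near the limit of the rule. It came to 4.005-fold in the brighter probe set, and to 7.49-fold in the other. It fell short of 4-fold in 4 of 8 alternative settings, where the smallest value was 2.84-fold, and kept its direction in all 8. Frzb was also the only one of the 9 genes that was 4-fold apart from double-negative cells in opposite directions in the marker-bearing populations, which 0.419% of 12643 measured genes were.

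Sfrp2 and Frzb, relatives with opposite distributions, are shown over the same window and with the same capitals.
Sfrp2 (chr3:83766071-83766370, plus strand): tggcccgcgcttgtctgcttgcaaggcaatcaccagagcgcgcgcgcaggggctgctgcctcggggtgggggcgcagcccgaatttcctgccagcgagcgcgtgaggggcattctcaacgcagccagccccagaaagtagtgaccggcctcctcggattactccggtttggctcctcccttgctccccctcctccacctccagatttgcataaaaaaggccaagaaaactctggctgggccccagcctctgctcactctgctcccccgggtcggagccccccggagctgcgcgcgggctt
Frzb (chr2:80447347-80447646, minus strand): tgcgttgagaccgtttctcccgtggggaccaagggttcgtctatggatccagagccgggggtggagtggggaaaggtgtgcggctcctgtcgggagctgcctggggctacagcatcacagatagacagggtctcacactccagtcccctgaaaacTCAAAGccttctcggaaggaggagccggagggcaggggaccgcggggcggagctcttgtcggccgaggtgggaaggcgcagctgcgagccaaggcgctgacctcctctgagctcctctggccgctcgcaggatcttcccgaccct
The Sfrp2 window held no match to these motifs, and that of Frzb held 1 TCF/LEF core match, 95 bases before the start. Promoters of 6 of the 10 genes were found in the table, and these had at least 57.7% G and C bases in this window, against a median of 52.7% for all promoters. Of those 6, the ones with a TCF/LEF core match were Dkk1, Dkk2 and Frzb. Dkk1 and Frzb were highest in ALCAM-positive cells and Dkk2 in Sca-1-positive cells. A link between these matches and the distributions was not tested.

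**Figure D1:**
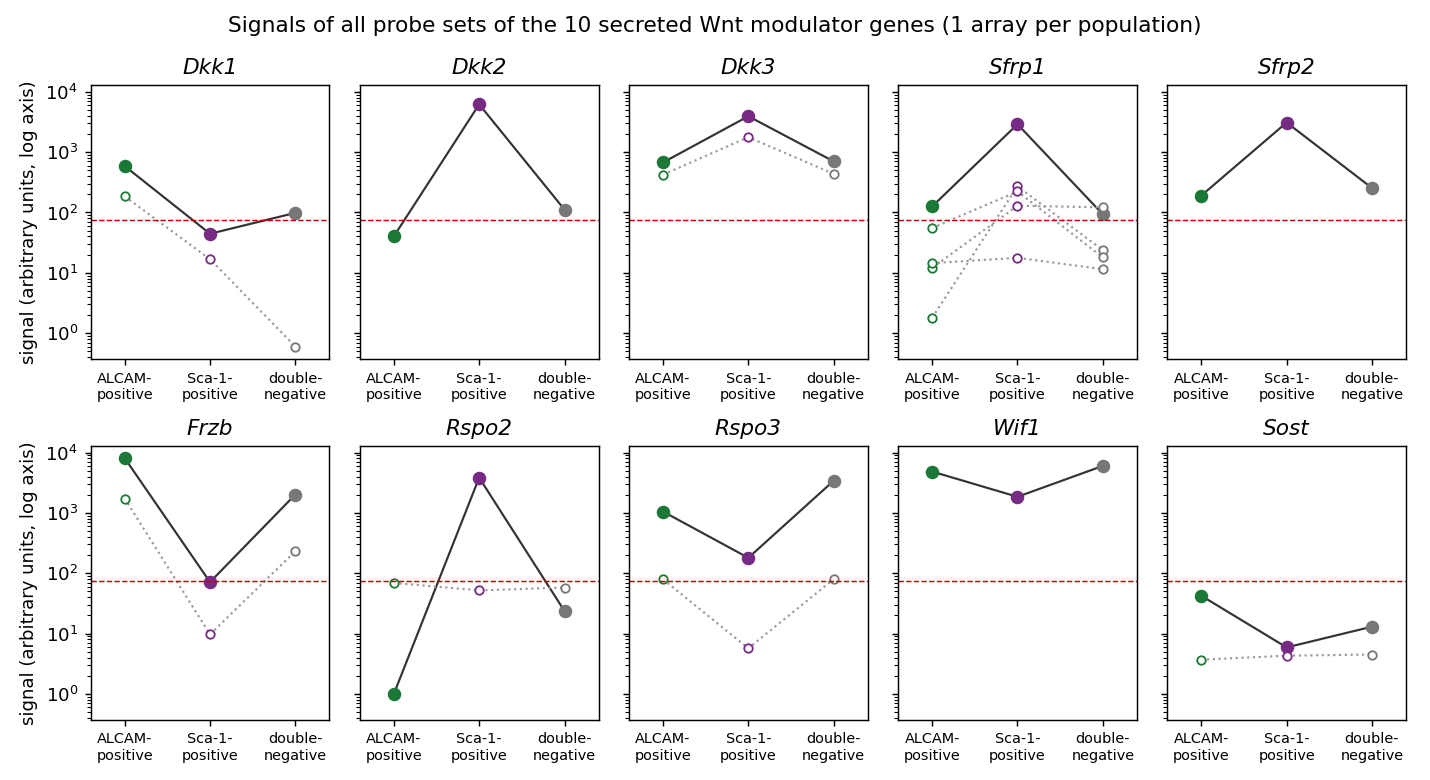
Signal (log axis, arbitrary units) of the 20 probe sets in ALCAM-positive, Sca-1-positive and double-negative cells, 1 array each. Filled points and solid lines are the probe set with the highest mean signal of a gene, open points and dotted lines its other probe sets, and the dashed line is the floor of 75.4. Dkk2, Dkk3, Sfrp1, Sfrp2 and Rspo2 peak in Sca-1-positive cells, while Dkk1 and Frzb are highest in ALCAM-positive cells.

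The R-spondin genes, the potentiators among the 10, were split between Sca-1-positive and double-negative cells. Rspo2 had 1.0 in ALCAM-positive, 3826 in Sca-1-positive and 23.6 in double-negative cells. It was therefore at least 50.7-fold higher in Sca-1-positive than in double-negative cells and at least 50.7-fold lower in ALCAM-positive than in Sca-1-positive cells. Rspo2 passed the floor through the Sca-1-positive array alone, so some difference was bound to follow from its being measured. The second Rspo2 probe set did not reach the floor on any array, at 69.1 in ALCAM-positive, 52.0 in Sca-1-positive and 57.9 in double-negative cells, and thus bears on neither comparison.

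Rspo3 had 1052 in ALCAM-positive, 180 in Sca-1-positive and 3407 in double-negative cells. Sca-1-positive cells, highest for Rspo2, were thus lowest for Rspo3. It was 18.9-fold lower in Sca-1-positive than in double-negative cells, rank 46 from the bottom of 10324 genes. ALCAM-positive cells took a middle place, 5.85-fold above Sca-1-positive cells and 3.24-fold below double-negative cells. The other Rspo3 probe set barely reached the floor, with 79.2 in ALCAM-positive, 5.7 in Sca-1-positive and 79.6 in double-negative cells, which bounds the deficit of Sca-1-positive against double-negative cells at only 1.06-fold or more. The excess of ALCAM-positive over Sca-1-positive cells fell short of 4-fold in 4 of 8 alternative settings, with values down to 2.43-fold. It kept its direction in all 8. The deficit of Sca-1-positive against double-negative cells stayed past 4-fold in all 8.

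Wif1, the Wnt inhibitory factor gene, had the smallest of the 9 genes' widest differences. Its signal was 4834 in ALCAM-positive, 1846 in Sca-1-positive and 6000 in double-negative cells from its 1 probe set, and no comparison reached 4-fold. Sca-1-positive cells were lowest, 3.25-fold below double-negative cells, and ALCAM-positive cells stood 2.62-fold above Sca-1-positive cells. Sost, an osteocyte gene, was not above the floor on any array. Its probe sets gave 42.3 and 3.7 in ALCAM-positive, 5.9 and 4.3 in Sca-1-positive and 13.0 and 4.5 in double-negative cells. Among other osteocyte genes, Dmp1 had 6431 in ALCAM-positive, 11.8 in Sca-1-positive and 115 in double-negative cells, while Mepe, another matrix gene of osteocytes, was below the floor on all 3, at 60.5 in ALCAM-positive, 8.7 in Sca-1-positive and 12.6 in double-negative cells.

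Set side by side, Sca-1-positive against double-negative cells gave the most members apart among the comparisons with double-negative cells. Past 4-fold on the high side in Sca-1-positive cells were 5 of the 9 measured genes (Dkk2, Rspo2, Sfrp1, Sfrp2 and Dkk3), against a background of 5.46% of 12643 measured genes. The members were chosen with earlier results of these data known, so the shares in this and the next comparisons are description only. Rspo2 is counted although it passed the floor through the Sca-1-positive array alone. Another 2 were at least 4-fold lower (Frzb and Rspo3), against 4.71%. The median log2 difference of the 9 genes was 2.49, and that of all measured genes was 0. Over the 10 measured genes of a list of other secreted Wnt modulators, described below, it was 0.18, so that list's median did not show the shift. Both lists were chosen with earlier results known, and the difference between them was not tested. The genes that were higher include an R-spondin beside 4 genes of the antagonist families, and those that were lower likewise include 1 of each kind.

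In ALCAM-positive against double-negative cells 2 of the 9 genes, Dkk1 and Frzb, were at least 4-fold higher, where the background was 2.01%, and 0 were lower, where it was 2.67%. Dkk1 held rank 123 and Frzb rank 199 from the top of 10467 genes above the floor on both arrays. The median log2 difference of the 9 genes was -0.06 and that of all measured genes -0.03. Dkk3, Sfrp1, Sfrp2 and Wif1 differed at most 1.35-fold.

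In ALCAM-positive against Sca-1-positive cells 3 genes were at least 4-fold higher (Frzb, Dkk1 and Rspo3; background 3.99%) and 5 at least 4-fold lower (Dkk2, Rspo2, Sfrp1, Sfrp2 and Dkk3; background 5.86%). This comparison is the difference of the others, uses the same arrays and adds no independent measurement. Wif1 was the one measured gene within 4-fold here. Over all comparisons 8 of the 9 genes were apart at least once, against 14.8% of measured genes.

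**Figure D2:**
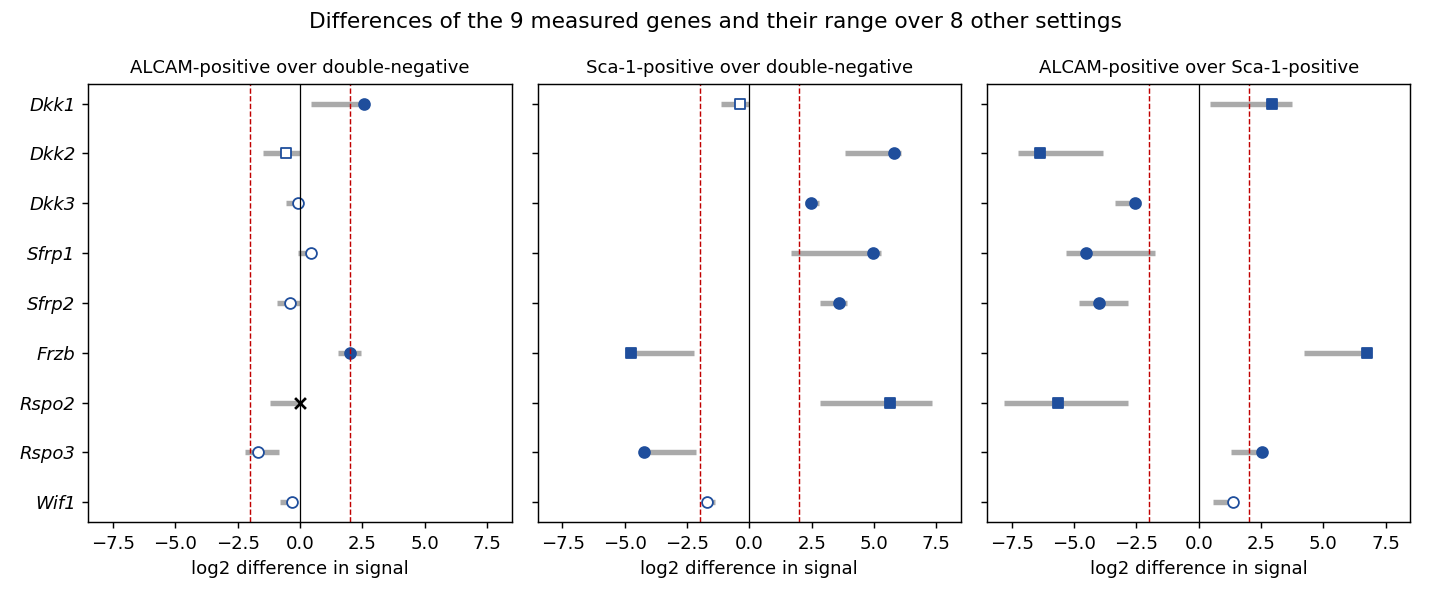
Log2 difference in signal of the 9 measured genes in the 3 comparisons. Circles are ratios of signals above the floor, squares are bounds set by the floor, the cross marks Rspo2, below the floor on both arrays, filled symbols are at least 4-fold apart (dashed lines), and grey bars span 8 alternative settings. Rspo2, Dkk2, Sfrp2 and Dkk3 stay past 4-fold throughout their bars for Sca-1-positive over double-negative cells, and the bar of Sfrp1 reaches down to 1.69.

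**Figure D3:**
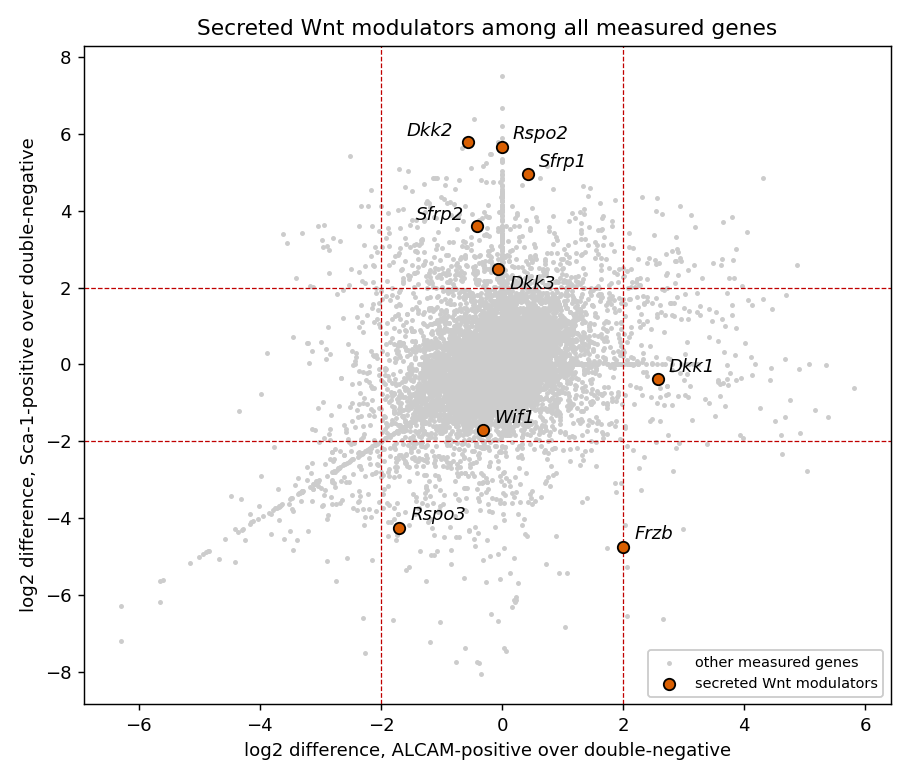
Log2 difference of ALCAM-positive over double-negative cells (horizontal) against Sca-1-positive over double-negative cells (vertical) for 12643 measured genes (grey) and the 9 measured modulators (orange), with dashed lines at 4-fold. Both axes share the double-negative array; Frzb is the lowest of the modulators, at -4.74 on the vertical axis.

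Each of the 8 genes apart was set beside the rest of the array by the root mean square distance of floored log2 signals over the 3 arrays. This likeness rests on 3 values per gene and sets different probe sets side by side, and it is a description only. Celf2 was closest to Dkk2, at a distance of 0.07, with 65.7 in ALCAM-positive, 5934 in Sca-1-positive and 119 in double-negative cells. Next came Mfap5, a microfibril gene of fibroblasts, at 0.30 and Cyp1b1 at 0.34. Frzb was closest to Slc38a4, an amino acid transporter gene, at 0.13, with 6922 in ALCAM-positive, 39.2 in Sca-1-positive and 2081 in double-negative cells. The nearest genes were Srl for Dkk1, Tns1 for Dkk3, Xdh for Sfrp1, Nsg1 for Sfrp2, AW551984 for Rspo2 and Unc5c for Rspo3. Sfrp2 also had Csf1, a growth factor gene of the macrophage lineage, among its nearest 3, at 0.30.

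Among other secreted modulators, 10 of the 14 listed genes were measured. In Sca-1-positive against double-negative cells 2 of them were at least 4-fold higher, where the background over all measured genes was 5.46%, and 3 lower, where it was 4.71%. In ALCAM-positive against double-negative cells 0 were higher, where it was 2.01%, and 1 lower, where it was 2.67%. Sfrp4, another frizzled-related gene, had 732 in ALCAM-positive, 25312 in Sca-1-positive and 1381 in double-negative cells, 18.3-fold higher in Sca-1-positive than in double-negative cells. Sfrp5 was instead 5.89-fold lower in Sca-1-positive cells, at 90.4 against 533 in double-negative cells. Rspo4 was at least 5.42-fold lower in Sca-1-positive cells, at 10.8 against 409 in double-negative cells. Notum, whose product inactivates Wnt proteins by removing their lipid, was at least 17.0-fold lower in Sca-1-positive than in double-negative cells, at 60.6 against 1283. Igfbp4, an IGF-binding protein gene also described as a Wnt antagonist, was 6.14-fold higher in Sca-1-positive cells, at 18519 against 3016 in double-negative cells. Trabd2b, which encodes a protease acting on Wnt proteins, was 4.33-fold lower in ALCAM-positive than in double-negative cells, with 294.7 in ALCAM-positive, 1486 in Sca-1-positive and 1277 in double-negative cells, the lowest value being that of ALCAM-positive cells.

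Among the receptors through which the modulators act and their partners, 8 genes were measured. In Sca-1-positive against double-negative cells 0 of them were past 4-fold on the high side and 1 on the low side (background 5.46% and 4.71%), and in ALCAM-positive against double-negative cells 1 was higher and 0 lower (background 2.01% and 2.67%). In lists this short a single gene exceeds these shares, so nothing is read from such counts. Lrp4, which anchors sclerostin on bone cells, was 8.44-fold higher in ALCAM-positive than in double-negative cells, with 915 in ALCAM-positive, 246 in Sca-1-positive and 108.5 in double-negative cells. Lgr6, an R-spondin receptor gene, was 4.15-fold lower in Sca-1-positive than in double-negative cells, at 94.8 against 393. The co-receptor gene Lrp6, named here after its values were seen, had 531 in ALCAM-positive, 1983 in Sca-1-positive and 693 in double-negative cells, though another probe set gave the opposite sign for ALCAM-positive against double-negative cells. Lrp5, likewise, was below the floor on all 3 arrays.

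Among the frizzled genes, 1 of 9 measured was at least 4-fold higher and 1 lower in Sca-1-positive than in double-negative cells (background 5.46% and 4.71%). Fzd4 was 11.96-fold higher, at 2119 in Sca-1-positive against 177 in double-negative cells, and Fzd9 was 8.16-fold lower, at 122 in Sca-1-positive against 995 in double-negative cells. Fzd5 was 5.81-fold higher in ALCAM-positive than in double-negative cells, at 2044 against 352, the only one of the 9 past 4-fold there (background 2.01% higher and 2.67% lower). Fzd1 was 4.21-fold lower in ALCAM-positive than in Sca-1-positive cells, at 434.5 against 1831.

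Of the Wnt ligand genes, 12 of 19 were measured, and 2 were at least 4-fold higher and 2 lower in Sca-1-positive than in double-negative cells (background 5.46% and 4.71%). Wnt2 was at least 8.90-fold higher, at 671 in Sca-1-positive against 14.7 in double-negative cells. It passed the floor through the Sca-1-positive array alone, so some difference was bound to follow from its being measured. Wnt9a was 7.94-fold higher, at 1907 in Sca-1-positive against 240.2 in double-negative cells. Wnt4 was at least 47.6-fold lower, at 73.7 in Sca-1-positive against 3587 in double-negative cells, and Wnt5b was 11.8-fold lower, at 165.5 in Sca-1-positive against 1950 in double-negative cells. Between ALCAM-positive and double-negative cells Wnt4 differed 1.03-fold and Wnt5b 1.46-fold. Dkk1, Frzb, Rspo3 and Wif1 were likewise higher in both of these populations than in Sca-1-positive cells. In ALCAM-positive against double-negative cells 0 ligand genes were 4-fold apart in either direction (background 2.01% higher and 2.67% lower).

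Of the target and feedback genes of the pathway 12 were measured, of which 1 was at least 4-fold higher and 2 lower in Sca-1-positive than in double-negative cells (background 5.46% and 4.71%). In ALCAM-positive against double-negative cells 2 were higher and 0 lower (background 2.01% and 2.67%). Ccn4, a matricellular gene first described as Wnt-induced, had 10822 in ALCAM-positive, 228 in Sca-1-positive and 2197 in double-negative cells. Ccn5, its relative, had 130.4 in ALCAM-positive, 2945 in Sca-1-positive and 331 in double-negative cells, the opposite order. Lef1, which encodes a transcription factor of the pathway, was at least 7.10-fold lower in Sca-1-positive than in double-negative cells, at 38.0 against 535. Nkd2, a feedback inhibitor gene, was 4.30-fold higher in ALCAM-positive than in double-negative cells, at 742 against 172. Axin2, a widely used read-out picked with its values known, was within 4-fold in every comparison, with 263 in ALCAM-positive, 430.1 in Sca-1-positive and 215 in double-negative cells.

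**Figure D4:**
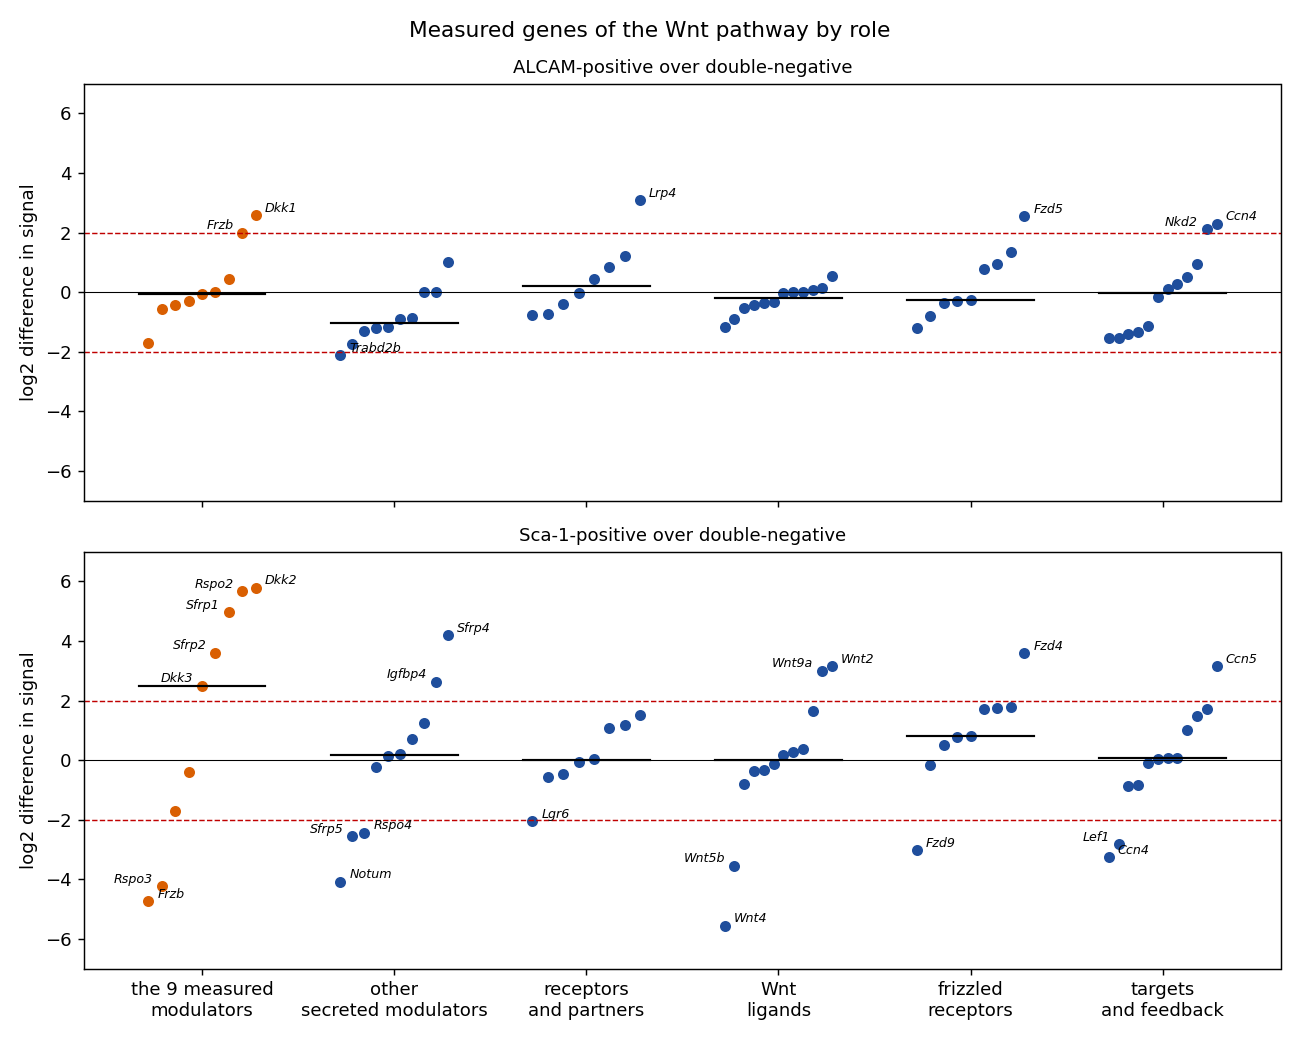
Log2 difference in signal of the measured genes of 6 Wnt pathway groups, for ALCAM-positive over double-negative cells (top) and Sca-1-positive over double-negative cells (bottom). Points are genes, bars are group medians, dashed lines are at 4-fold and genes past them are named; the secreted modulators reach 5.79 and -4.74 for Sca-1-positive over double-negative cells.

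Markers of cell types moved with these differences, and their part in them was not tested. The 8 fibroblast and progenitor markers had a summed signal of 5767 in ALCAM-positive, 95730.1 in Sca-1-positive and 2579 in double-negative cells. Each of the 8 was more than 4-fold higher in Sca-1-positive than in double-negative cells (background 5.46%), as were Dkk2, Dkk3, Sfrp1, Sfrp2 and Rspo2. Pi16 and Cd248, like Rspo2, passed the floor through the Sca-1-positive array alone, so for them some difference was bound to follow. In ALCAM-positive cells 4 of the 8 were above the floor, and Pdgfra alone gave 5122 of the sum. The median log2 difference of the 8 between ALCAM-positive and double-negative cells was -0.42. The 7 cartilage markers summed to 171084 in ALCAM-positive, 4601 in Sca-1-positive and 166914 in double-negative cells. Dkk1, Frzb, Rspo3, Wif1 and Wnt4 were likewise lowest in Sca-1-positive cells. Between ALCAM-positive and double-negative cells the median log2 difference of the 7 markers was -0.06, while Wnt4 differed 1.03-fold and Wif1 1.24-fold. Frzb was instead 4.005-fold and Dkk1 5.96-fold higher, and Rspo3 3.24-fold lower, in ALCAM-positive than in double-negative cells. The 6 osteoblast markers summed to 151442 in ALCAM-positive, 9978 in Sca-1-positive and 67910 in double-negative cells. All of the cartilage and osteoblast markers were above the floor on all 3 arrays. Of 4 osteocyte markers, which summed to 23202 in ALCAM-positive, 1442 in Sca-1-positive and 1307 in double-negative cells, Dmp1 and Phex were measured. Both were at least 4-fold higher in ALCAM-positive than in the other populations, as were Dkk1 and Frzb. Mepe and Fgf23 were below the floor on all 3 arrays. The 3 joint surface markers summed to 4359 in ALCAM-positive, 46749 in Sca-1-positive and 34820 in double-negative cells, a sum made up mostly of Prg4 and Cilp. The 4 smooth muscle and pericyte markers summed to 9963 in ALCAM-positive, 9433 in Sca-1-positive and 14308 in double-negative cells, and the brightest of them, Cspg4, had 8932 in ALCAM-positive, 3278 in Sca-1-positive and 10408 in double-negative cells. Rgs5, a pericyte marker, instead had 58.6 in ALCAM-positive, 2333 in Sca-1-positive and 276 in double-negative cells, 8.45-fold higher in Sca-1-positive than in double-negative cells. Acta2 had 971 in ALCAM-positive, 3821 in Sca-1-positive and 3532 in double-negative cells, and Myh11 passed the floor in double-negative cells alone, at 92.2.

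Blood-cell genes were also unequal. The 4 red cell markers summed to 278 in ALCAM-positive, 145 in Sca-1-positive and 15314 in double-negative cells, with 1 above the floor in ALCAM-positive, 0 in Sca-1-positive and 4 in double-negative cells. The 5 neutrophil markers summed to 290 in ALCAM-positive, 13296 in Sca-1-positive and 2401 in double-negative cells, with 2 above the floor in ALCAM-positive, 5 in Sca-1-positive and 4 in double-negative cells. In Sca-1-positive against double-negative cells 4 of the 5 passed 4-fold on the high side (background 5.46%). Camp, 1 of these 4, passed the floor through the Sca-1-positive array alone, so some difference was bound to follow. Mpo was instead 14.8-fold lower, at 91.4 in Sca-1-positive against 1355 in double-negative cells. The 3 macrophage markers were low throughout, with sums of 359 in ALCAM-positive, 391 in Sca-1-positive and 325 in double-negative cells, and Adgre1 was below the floor on all 3 arrays. Of 4 endothelial markers, Cdh5 and Emcn were below the floor on all 3 arrays, Kdr passed it in ALCAM-positive cells alone, at 76.7, and Tek had 631 in Sca-1-positive cells against 18.8 in double-negative cells. Pecam1 (CD31) did not reach the floor on any array, and Ptprc, which encodes CD45, had 11.6 in ALCAM-positive, 163 in Sca-1-positive and 159 in double-negative cells. Alcam itself had 267.7 in ALCAM-positive, 41.1 in Sca-1-positive and 36.3 in double-negative cells. Ly6a, which encodes Sca-1, was not analysed here.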

How the data were processed

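Each of the 3 arrays has 45101 probe sets, whose signal intensity on a linear scale was computed by the authors with MAS5 before they deposited it (per the submitters' processing notes, which name no version). Per the labels' protocols, TRIzol was used to extract RNA, which was labelled with biotin in the array maker's 2-cycle assay, which amplifies small amounts and favours the 3' ends of transcripts. The 2% trimmed mean was 500.0 on each array, so the values already shared a scale. That scaling sets the arrays' total signal equal, while the geometric mean signal of the poly-A spike-in controls was 262 in ALCAM-positive, 151 in Sca-1-positive and 186 in double-negative cells.

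Probe sets were named from the array's annotation, updated by Entrez identifier through a RefSeq gene table (GRCm38.p6, names only), which changed 0 symbols. The 64 control probe sets entered no gene result. Signals were raised to the floor of 75.4 and log2-transformed, and the probe set with the highest mean signal stood for a gene, as with 12643 measured of 18193 genes. Over 4152 genes with several probe sets above the floor on every array, the log2 differences of the brightest pair disagreed with an SD of 0.54 for ALCAM-positive over double-negative, 0.67 for Sca-1-positive over double-negative and 0.75 for ALCAM-positive over Sca-1-positive cells. This holds no spread between sorts or mice, and the number of arrays, 1 per population, limits the precision.

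The members, the pathway and marker lists and the settings were chosen with earlier results of these data known. Named are the members, up to 6 genes of each pathway list at least 4-fold apart in any comparison, ordered by size, and the 3 nearest genes of each member apart, of which some are printed. The ranks and the promoter motifs were added after the data were seen. Listed genes without a probe set of a single symbol were not analysed here. The procedure was tested on simulated data with changes planted only in genes well above the floor, so that test does not bear on values near the floor. Analyses used Python 3.11.15, pandas 2.3.3 and numpy 2.4.6. The alternatives were quantile normalization, scaling on spike-in controls, other floors, a pseudocount of 16, other choices of probe set and a 2-fold rule.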

Additional observations from a re-analysis of the deposited data

How the results depend on the processing

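The counts of genes at least 4-fold higher or lower in Sca-1-positive than in double-negative cells, and lower in ALCAM-positive than in Sca-1-positive cells, moved by no more than 1.5 times under the 9 alternatives. All 17 differences past 4-fold kept their direction under the 8 settings that recompute them, and 11 of the 17 stayed past 4-fold in each. Those of ALCAM-positive against double-negative cells were the least stable. The count of 2 higher genes became 1 under quantile normalization, poly-A spike-in scaling, hybridization control scaling and the pseudocount (Dkk1 alone), and 1 (Frzb alone) when all probe sets were averaged or the floor was raised to the 75th percentile. The count of 0 lower genes became 1, Rspo3, under either spike-in scaling and under the 2-fold rule. The count of 3 genes higher in ALCAM-positive than in Sca-1-positive cells became 1, Frzb, with the floor at the 75th percentile. Under the other alternatives these 3 counts stayed within 1.5 times. Scaling on the poly-A spike-in shifted the median of all measured genes to -0.45, 0.25 and -0.75 on the log2 scale for ALCAM-positive over double-negative, Sca-1-positive over double-negative and ALCAM-positive over Sca-1-positive cells, and the hybridization controls to -0.46, 0.24 and -0.74. By construction, spike-in scaling moves the log2 differences of genes above the floor on both arrays by a constant for each comparison. The differences of Sfrp1 under averaged probe sets rest on dim probe sets. No paired analysis was possible because each population has 1 array and no test was run, and no replicate could be left out. Genes near the floor, Sost, Dkk1 and the second probe sets of Rspo2 and Rspo3 among them, are limited by signal over background.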

Other observations

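Further genes of the fixed pathway lists, picked here after their values were seen, did not pass the 4-fold rule in any of the 3 comparisons. Rspo1 was above the floor in Sca-1-positive cells alone, at 179.7, with 3.0 in ALCAM-positive and 46.9 in double-negative cells, which bounds its excess there at 2.38-fold or more and leaves its size unknown. Kremen1, which encodes a receptor for Dickkopf proteins, had 563 in ALCAM-positive, 873 in Sca-1-positive and 411 in double-negative cells, but both of its other probe sets above the floor gave the opposite sign for ALCAM-positive against Sca-1-positive cells. The R-spondin receptor gene Lgr4 had its highest signal in ALCAM-positive cells, at 2777, against 1226 in Sca-1-positive and 1197 in double-negative cells. Tnfrsf11b, the gene of the RANKL decoy osteoprotegerin, had 1035 in ALCAM-positive, 1615 in Sca-1-positive and 2980.1 in double-negative cells.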
